A study of Homo sapiens with 9 samples.

Results

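Start-site associated short RNAs were taken from the small RNA profile of K562 cells as the listed alignments of 16–24 nt whose 5′ end lies within 250 nt of the start of a protein-coding transcript on GRCh37 (hg19). An alignment here is one unique combination of 5′ end, 3′ end and strand, and each was counted once unless reads are named. Of 1,822,532 alignments of this length, 125,073 (6.86%, 95% Wilson interval 6.83–6.90) were members. Of these, 91,936 were sense, meaning on the strand of the gene, and 33,137 were antisense and had no start on their own strand within 250 nt. Distances are counted in the direction of the gene, position 0 is the first transcribed base, and negative positions lie upstream of the start. The starts were 78,569 positions under 19,761 gene symbols in GENCODE release 44.

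K562 is an established line from a human chronic myelogenous leukemia that expresses erythroid genes, and the cells were untreated. Small RNA of 3 batches was sequenced as 50-nt reads after selection of inserts of 20–40 nt, and the authors pooled the batches into 1 list, so that no value below has a replicate and no test between samples was possible. The library kit joins adapters to RNA with a 5′ phosphate, and no step for removal of caps is named in the protocol. The list holds 3,688,019 alignments and 47,670,688 reads after the deposited read numbers were divided by the number of near neighbours, which gives what is called recovered reads below. Intervals cover counting error only.

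RNA polymerase II initiates, transcribes a short stretch and often pauses before it is released into the gene. At many mammalian promoters a separate polymerase initiates on the opposite strand and moves away upstream, which is known as divergent transcription. Short RNAs that map just downstream of starts have been described in animals as transcription initiation RNAs, and short RNAs whose 3′ end falls on a 5′ splice site as splice-site RNAs. Fragments of messenger RNA, microRNAs and products of RNA polymerase III can map to the same windows.

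Sequences that carry the main features are shown first. The following are 18-nt sense members, each the one of most recovered reads of that length in its gene, from genes with many members. Capitals mark the member, and lower case the 3 genomic bases on either side.
C12orf57: cggTTGTAGGACGTGGCTCTTtat
BRD2: cagCCTCTAGAACGAGCTGGAgga
FOS: gcaTCTGAGAAGCCAAGACTGagc
EGR1: cgcGCAGAACTTGGGGAGCCGccg
TFRC: cggCTCGGGACGGAGGACGCGcta
RPLP0: aggTTCGTGTGCTAGTTAGATggg

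These lie at chr12:7053215-7053232 (+), chr6:32940000-32940017 (+), chr14:75745551-75745568 (+), chr5:137801183-137801200 (+), chr3:195808919-195808936 (-) and chr12:120638867-120638884 (-) of GRCh37. Their 5′ ends are at positions 30, 6, 20, 15, 17 and 18 of the genes, and they had 16, 4, 11, 10, 20 and 7 recovered reads. All of them have 1 exact match in the genome, which was searched without the mitochondrial chromosome here and below.

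The next are 18-nt antisense members upstream of the starts of genes with many such members, chosen and marked in the same way.
KIF11: ccgAGACGCTAGAATTGAGTGtgg
RCC1: ggaCTCAGTCTGTAGGATATGccc
LUC7L2: ctcCCGGCTGTAGGGCTGGCGgct
NUP133: agcTTCCAGGGACGTGAAGCCgga

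They lie at chr10:94352687-94352704 (-), chr1:28832259-28832276 (-), chr7:139044393-139044410 (-) and chr1:229644248-229644265 (+). Their 5′ ends are at positions -183, -179, -182 and -160, and they had 6, 8, 6 and 5 recovered reads, each with 1 exact match.

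Another set ends on the last base of a first exon. Capitals mark the member and lower case the first 4 bases of the intron, which open with the gt of the 5′ splice site.
HGS: AGGACATCGACCCTGAGgtaa
NADSYN1: TCATCTCGAAACCTGGCGgtga
CBS: TCAGTGCGGAACTACATgtaa

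These lie at chr17:79661867-79661883 (+), chr11:71189498-71189515 (+) and chr21:44480551-44480567 (-), are 17, 18 and 17 nt long, and had 15, 112 and 14 recovered reads. HGS encodes a subunit of the endosomal ESCRT machinery, NADSYN1 the last enzyme of NAD synthesis and CBS cystathionine beta-synthase.

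The last set holds the unannotated species of most reads, in lower case with a terminal run of T or a terminal CCA in capitals.
PLXDC1 sense: tgtgctccggagttacctcgTTT
KNL1 antisense: atgtggtggcttacTTT
SHF antisense: gtggcgtcccggtagctc
CASP8AP2 antisense: tccctggcatctccaCCA

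They lie at chr17:37310720-37310742 (-), chr15:40886006-40886022 (-), chr15:45493331-45493348 (+) and chr6:90539586-90539603 (-). Their recovered reads were 56,530, 35,662, 8780 and 7840, and they are described with the other abundant species at the end.

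Reads and species gave different pictures of these windows. The members held 1,043,407 recovered reads, 2.19% of all. Members on an annotated small RNA gene of the same strand were 1449 in number (1.16%) but held 641,948 reads (61.5%). The 3 genes with most of these reads were NDUFAF3 with MIR191 (275,656 reads) and MIR425 (13,557 reads) on the opposite strand, NSRP1 with MIR423 (192,028 reads), and POLR3D with MIR320A on the opposite strand (64,351 reads). These members were set apart, which left 123,624 unannotated members, 90,782 sense and 32,842 antisense, with 401,459 reads. Among them, 92,946 (75.2%) rested on 1 recovered read, 1121 (0.907%) had at least 10 reads and 114 had at least 100. An exact sequence with a single match in GRCh37 without the mitochondrial chromosome was held by 87.6%. Sense members included 9757 (10.7%) that also lie within 250 nt of a start on the other strand and were counted as sense only. All following numbers are on the unannotated members.

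Sense members were concentrated immediately downstream of the start. The density, in alignments per 1000 strand positions with every position given to its nearest start, was 0.788 in the flank (beyond 750 and up to 1000 nt from the start on both sides) and 15.02 at positions 0 to 49, which is 19.05 times the flank (95% interval 18.7–19.4). The highest bin of 10 nt was 10 to 19, with 10,582 members and 18.4 per 1000 (18.1–18.8). The density was 5.95 at 50 to 99, 2.61 at 100 to 149 and 1.85 at 200 to 250. Upstream it was 4.58 at -50 to -1, 1.43 at -100 to -51 and 0.899 at -250 to -201, the last 1.14 times the flank (1.084–1.198). As such, 46.0% of sense members had their 5′ end at 0 to 49 and 75.7% had it at or downstream of position 0. The flank itself was uneven, and against the downstream flank alone positions 0 to 49 stood 16.4 times higher. Against the upstream flank alone, positions -250 to -201 stood at 1.36 times.

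The rise across the start was gradual at the resolution of single bases. Densities were 2.96 per 1000 at -30 to -21, 5.06 at -20 to -11, 7.33 at -10 to -6 and 10.6 at -5 to -1. They were 15.2 at 0 to 12, then 19.5 at 13 to 22, 15.1 at 23 to 34 and 11.3 at 35 to 49. Position 0 had the highest count of any single position, with 1174 sense members (1.29%), against 920 at -1, 1105 at 1 and 1154 at 15. Per 1000 available positions it did not stand out, with 14.95 at 0, 14.5 at 1 and 20.3 at 15. Members that span the start, with the 5′ end upstream and the 3′ end downstream of it, made up 9.46% (9.27–9.66).

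Antisense members lay upstream, at a distance. Their density was 0.519 per 1000 in the flank and highest at -140 to -131, with 1385 members and 3.49 per 1000 (3.31–3.68). It was 3.18 at -200 to -151 and 3.19 at -150 to -101, both 6.1 times the flank (6.13 and 6.15). Against the upstream flank alone these 2 bins stood at 5.45 and 5.47 times. The antisense density fell to 1.81 at -100 to -51 and to 1.05 at -50 to -1, and was 2.41 at -250 to -201. Downstream of the start it stayed between 0.807 and 0.919 per 1000 in bins of 50 nt, 1.65 times the flank over the whole side (1.61–1.70). Against the downstream flank alone that side stood at 1.89 times. Upstream positions held 71.6% of antisense members. On the limit of 250 nt itself, 554 sense and 564 antisense members had distances of 246–250 nt, and 549 and 513 alignments lay at 251–255 nt.

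The strand ratio therefore depended on the side. Over the whole window, sense density was 2.62 times antisense density (2.59–2.66). It was 7.10 times downstream of the start (6.95–7.26) and 0.877 times upstream (0.861–0.893). The sense peak region (0 to 49) was 4.72 times as dense as the antisense peak region (-200 to -101), with an interval of 4.62–4.81. By plain counts the ratio was 2.76 for species and 1.84 for recovered reads.

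The 5′ end of sense members had a median position of 22 with quartiles of 0 and 60, and the 3′ end a median of 40 with quartiles of 18 and 78. Among sense members with the 5′ end downstream of the start the medians were 36 and 55. Antisense members had a median 5′ end at -105 over the whole window and at -140 (quartiles -188 and -94) among those upstream, with a median 3′ end at -159. The limit of 250 nt sets part of these antisense values, because the upstream peak runs past it. Antisense density was 2.41 per 1000 at -250 to -201 and still 1.35 at -400 to -391, against 0.519 in the flank. The median 5′ end of sense members stayed between 20 and 23 for each length from 16 to 24 nt. In contrast, the median for antisense members was -33 at 16 nt, -71 at 17 nt and between -111 and -119 from 18 nt on. Ends were shared only in part: 24.3% of sense members shared their 5′ end with another member and 21.0% their 3′ end, against 18.9% and 16.3% of antisense members.

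Length was a feature that both strands shared. On both strands the middle length was 19 nt, with quartiles at 18 and 21 nt. An 18-nt length was the most frequent, with 26.1% of sense members at 0 to 99 (n = 55,427) and 27.9% of antisense members at -250 to -101 (n = 16,929), followed by 19 nt with 18.6% and 19.1%. Lengths of 16 nt made up 5.39% and 5.68%. Over 1000 nt from every start, the 18-nt share was 15.5% in exons of coding transcripts, 18.7% in introns and 20.7% outside coding genes. In those sets 17 nt was about as frequent as 18 nt (15.4%, 18.7% and 20.7%). At starts, 17 nt stood at 9.10% (sense) and 8.56% (antisense), so that by species the step from 17 to 18 nt was present there and not in the distant sets. By recovered reads this differed: 18 nt took 26.98% of sense reads at 0 to 99 and 26.4% of reads in distant exons, and among antisense reads at -250 to -101 17 nt (48.2%) exceeded 18 nt (28.7%), with 35,662 reads on the KNL1 species of 17 nt. The intervals of the 18-nt share did not overlap between either start set and any distant set. They treat alignments as independent, although some share an end or a gene, and they hold no spread between batches.

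The 18-nt share varied along the window. For sense members it was 20.7% (19.7–21.8) at -250 to -101, 24.9% at -50 to -1, 25.3% at 0 to 24, 26.95% at 25 to 49, 26.8% at 50 to 99 and 21.3% to 21.5% beyond 150. For antisense members it was 27.5% to 28.2% in the 3 bins from -250 to -101 25.5% at -100 to -51, 24.1% (22.4–25.9) at 0 to 49 and 26.2% at 100 to 149. Among antisense members downstream of the start the median length was 18 to 19 nt, with 13.6% of 16 nt at 0 to 49. By the amount of exonic material a gene gave, the share varied: in genes with no alignment in exons beyond 1000 nt, 27.5% (25.5–29.6) of sense members at 0 to 99 had 18 nt, and in genes with over 5 such alignments per kb of exon 24.9% (24.3–25.6), with 28.2% (26.4–30.1) in genes with up to 0.5 per kb. The sense intervals of the lowest and highest class overlap narrowly. For antisense members at -250 to -101 the share was 25.9% (22.9–29.1) in the lowest and 29.6% (28.2–30.97) in the highest class, whose intervals overlap.

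Most sense members were exonic. Of the 68,760 that began at or downstream of position 0, 88.0% had both ends in exons of coding transcripts, 3.02% ran from exon into intron and 6.92% lay within introns. The 5′ end was in an untranslated exon part for 65.4% and in coding sequence for 26.3%. In terms of density, exonic positions held 8.38 per 1000 and intronic positions 1.42, a ratio of 5.90 (5.73–6.08). Within bins of 50 nt the ratio was smaller, between 2.45 and 3.08.

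Intronic density also fell with distance up to position 150. It was 5.98 per 1000 at 0 to 49, 2.72 at 50 to 99, 1.37 at 100 to 149 and 1.02 to 1.03 beyond 150, against 15.3, 6.72, 3.36, 2.95 and 3.15 in exons, and the ratio was 2.45 (2.29–2.62) at 100 to 149 and 3.08 (2.87–3.30) at 200 to 250. The 18-nt share of intronic members was 29.1% at 0 to 49 and 27.7% at 50 to 99, against 25.8% and 26.8% of exonic members in those bins. At the starts of internal exons over 1000 nt from any transcription start, the density was 1.75 in the 50 nt before and 3.13 in the first 50 nt of the exon.

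**Figure D1:**
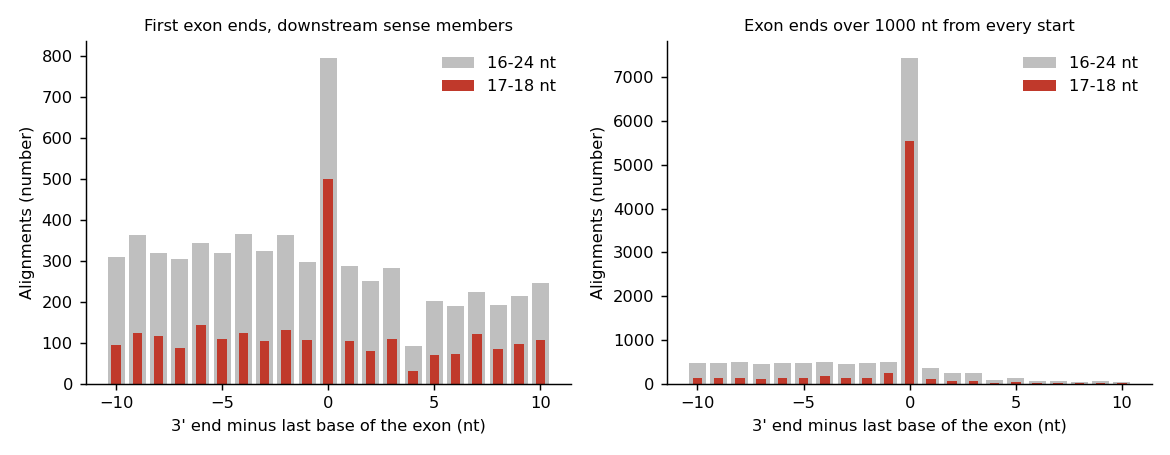
Number of alignments of 16–24 nt (grey) and of those of 17–18 nt (red) against the offset of the 3′ end from the last base of an exon, for first exons (left, sense members downstream of the start) and for exon ends over 1000 nt from every start (right). The bar at offset 0 stands 2.47 times above the median of the 10 positions before it on the left and 15.7 times on the right.

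A small group of members ended exactly on the last base of a first exon. There were 796 of them in 622 genes, with 1626 recovered reads, against 298 to 366 members (median 322.5) ending on each of the 10 bases before and 92 to 287 (median 219.5) on each of the 10 bases after. The lowest value, 92, was at the fourth intron base (offset 4). These members were shorter than the others: 39.2% (35.9–42.6) had 17 nt, against 9.42% of other downstream sense members, and 62.8% (59.4–66.1) had 17 or 18 nt, against 28.9% to 41.6% of members ending on one of the 10 bases before. On the 10 bases after, that share was 32% to 54.2%, and the interval of the highest, at offset 7 (47.7–60.6), overlapped that of the last exon base. No gene had more than 6 of them, and HGS (6), NADSYN1, CBS, NUP85 and THOP1 (5 each) had most. The excess at first exons was nevertheless modest. At exon ends over 1000 nt from every start 7447 alignments ended on the last base, 15.7 times the median of 473 at the 10 positions before, and 74.3% (73.3–75.3) of them had 17 or 18 nt.

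Members were rich in G and C, as their surroundings are. The median GC content was 63.2% for sense and 61.9% for antisense members, against 47.1% for alignments in distant exons. For sense members at 0 to 99, the first base was C in 34.2%, A in 23.1%, T in 22.5% and G in 20.2%, whereas all available positions there had 27.9% C, 20.2% A, 20.5% T and 31.4% G. G was thus less frequent as a first base than among the positions, and more frequent as the base just before the 5′ end (38.9%) and just after the 3′ end (39.8%). In distant exons G was the first base in 10.4%, and the base before in 31.3%.

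Sense members were found at 12,224 of 19,761 genes (61.9%) and antisense members at 8699 (44%), of which 6745 (34.1%) had one upstream of the start. At least 5 sense members were found at 6283 genes (31.8%), at least 20 at 860 and at least 100 at 14. The 100 genes with most held 7.46% of sense members, so the set was spread over many genes. A sense and an upstream antisense member were both present at 5936 genes, 809 had an upstream antisense but no sense member, and 6178 had no member at all. An upstream antisense member was present at 10.7% of genes with no sense member, 37.1% with 1 to 4, 58.2% with 5 to 19 and 66.9% with at least 20. Over genes, the number of sense members and of upstream antisense members had a Spearman rho of 0.47 (n = 19,761), as a description, since genes are not independent replicates and all points come from 1 list. Members were summed over all starts of a gene, so genes with more starts offered more positions on both strands. Neither the shares nor the rho were adjusted for this. Sense members had a rho of 0.66 with alignments per kb of exon beyond 1000 nt from a start, and upstream antisense members 0.39 (n = 17,809).

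There were 907 genes with at least 5 downstream sense and 5 upstream antisense members. In these, the median 5′ ends of the strands lay 189 nt apart (quartiles 146 and 232.75 nt), and in 838 of them (92.4%) over 100 nt. Because the members were taken from opposite sides of the start within 250 nt, the selection itself sets part of this distance. KIF11, the mitotic kinesin Eg5, had 62 upstream antisense members, 29 of them at -200 to -151, and 23 sense members, 10 of them at 0 to 49. RCC1, the exchange factor of the Ran GTPase, had 48 upstream antisense members with 33 at -200 to -151, and 27 of its 47 sense members lay at 0 to 49. NUP133, a nuclear pore scaffold protein, had 42 and 14. SLC3A2, the heavy chain of an amino acid transporter, had 52 upstream antisense and 48 sense members, with the gene SNHG1 on the opposite strand. LUC7L2 had 47 upstream antisense members, CMC1 and SLC25A16 45 each and SLC30A6 43. These genes were picked by the number of members, a ranking chosen after the values were seen, and no member of theirs had more than 12 recovered reads. The same ranking holds SHF in the first place (97 members, up to 8780 reads) and PARP2 (58 members, up to 760 reads), which are described with the abundant species.

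The genes with most sense members were C12orf57 with 163, BRD2 with 148 and RACK1 with 134. RefSeq lists the small nuclear RNA gene RNU7-1 inside C12orf57 or within 1000 nt of its ends. BRD2 is a reader of acetylated histones and RACK1 a scaffold on the small ribosomal subunit. MTRNR2L1, a nuclear copy of mitochondrial ribosomal RNA, had 125 sense members, with a median position of 146. Whether these also match the mitochondrial chromosome was not tested. Next came H2AC12 and the poly(A) binding protein PABPC1 (118 each), H2AC11 and the chaperone HSPA8 (116 each), the linker histone H1-2 (113) and H2AC8 (111). In H2AC12, 96 of 118 members lay at 0 to 49, 4 at 50 to 99 and 1 upstream. In C12orf57, 76 lay at 0 to 49 and 62 between -100 and -1, and in HSPA8 the members were spread, with 22 at 0 to 49 and 59 upstream. The strand imbalance was large in most of these genes, with 1 antisense member at C12orf57, H2AC12 and H2AC11 each, 6 at BRD2 and 10 at PABPC1. Because these genes were ranked by their number of sense members, the ranking itself sets part of this imbalance.

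In the gene lists, all 76 cytosolic ribosomal protein genes had a sense member, against 61.9% of all genes, with a median of 21.5 per gene against 2. Of their 3 genes with most reads, RPS16 had 65 sense members, RPLP1 47 and RPS24 60, with 131, 114 and 96 recovered reads. Replication histone genes, which make intronless messages without a poly(A) tail, had a sense member in 64 of 70 and a median of 30. Among them, H2AC20 had 107 members and 375 reads, H2AC12 361 reads and H2AC11 274 reads. Because histone genes are near-identical copies, assignment among them is uncertain: the H2AC11 member of 18 nt with most reads has 3 exact matches.

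Immediate early and heat shock genes, the textbook cases of paused polymerase, had a sense member in 22 of 23 with a median of 26. HSP90AB1 had 74 members and 198 reads, HSPA8 116 and 158, and FOS 52 and 128. In FOS, 45 of the 52 lay at 0 to 49, 2 at -150 to -101 and 2 at -100 to -51, and there was no antisense member. EGR1 had 26 sense members, JUN 29, MYC 33 and DUSP1 41, and neither EGR1 nor JUN nor DUSP1 had an antisense member. Translation factors (15 of 15, median 26) were led by PABPC1 (181 reads), EEF2 (117 reads) and EIF4A2 (108 reads), and housekeeping genes (18 of 18, median 22.5) by TUBA1B (189 reads), ALDOA (171 reads) and ENO1 (100 reads).

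The lists of erythroid transcription factors, of globin and heme genes and of iron genes had lower medians than the lists above. All genes together had a median of 2 and a sense member in 61.9%, below each of these 3 lists. Erythroid transcription factors all had a sense member (16 of 16) but the median was 6. TAL1 had 30 members with a median position of -12.5, GATA2 25 and ZFPM1 6, whereas GATA1 and KLF1 had 1 each although their exons gave 11.1 and 17.7 alignments per kb. Globin and heme genes (17 of 18, median 6.5) ranged widely. The embryonic and fetal globin genes HBE1, HBG2 and HBG1 had 70, 93 and 73 members with 125, 125 and 109 reads, and 57 of those of HBG2 and 44 of those of HBG1 lay at 0 to 49. HBA2 had 40 and HBA1 23. The copies HBG2 and HBG1, and likewise HBA2 and HBA1, cannot be told apart with certainty in short sequences. HBZ had 2. Iron genes (11 of 12, median 9.5) were led by the ferritin light chain FTL with 59 members and 87 reads, the transferrin receptor TFRC with 40 and 77, and FTH1 with 27 and 32. In TFRC, 25 of 40 lay at 0 to 49. Hepatic, neuronal and muscle genes had a sense member in 1 of 12 (APOB, 1 read), while ALB, GFAP and SNAP25 had 1 or 2 antisense members upstream of the start.

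Medians of upstream antisense members were lower than those of sense members in every list except hepatic, neuronal and muscle genes, where both were 0. The median of upstream antisense members was 0 for replication histones (26 of 70 with one) and for hepatic, neuronal and muscle genes (3 of 12), and between 0.5 and 2 for the other lists. Their shares with at least 1 ranged from 50% for erythroid transcription factors to 66.7% for housekeeping genes and translation factors, against 34.1% of all genes. The 18-nt share of sense members was below the 24.9% of all genes in every list of over 100 sense members, from 18.6% for globins and heme to 23.2% for housekeeping genes.

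Sense members varied with promoter composition. By 4 classes of equal size of the GC content within 250 bases of the most upstream start of a gene, 41.7%, 61.5%, 71.6% and 73.1% of genes had a sense member and 23.6%, 33.7%, 39.3% and 40.2% an upstream antisense member, from lowest to highest. Mean members per gene did not rise throughout, with 3.20, 5.14, 5.55 and 4.51 sense and 0.7496, 1.27, 1.504 and 1.24 upstream antisense members. Motifs were searched on both strands from 250 bases before to 50 after that start, as exact letters. GGGCGG, the core of GC boxes, was in 54.1% of all promoters, and 71.9% of genes with it had a sense member against 49.99% without it. CCGGAAG, the core of ETS sites, was in 12.3%, with 85.8% against 58.5%, and an upstream antisense member in 47.0% against 32.4%. CCAAT was in 35.6% (63.0% against 61.2%). TATAAA was in 10.5% of all promoters and in 15.1% of those with at least 20 sense members, although only 43.1% of genes with it had a sense member against 64.1% without. Sense members per start were 1.37 with TATAAA and 1.14 without, and mean sense members per gene 4.43 and 4.62. The other motifs were also more frequent among promoters with at least 20 sense members (GGGCGG 59.4%, CCAAT 43.5%, CCGGAAG 14.2%). Sense members per start were higher with each of these too, at 1.32 against 0.950, 1.28 against 1.09 and 1.62 against 1.09 in that order. These are matches of letters, and GGGCGG is part of no other motif searched.

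A large share of the reads of the unannotated members, though not most, came from few species beside RNA polymerase III promoter elements. A search for an A box (TNGNNNAGNNG) followed after 9 to 79 bases by a B box (GTTCNANNC) within 110 nt of a member on its strand found 411 members, 0.332% of the unannotated, with 171,914 reads (42.8%). PLXDC1 had 107,378 sense reads, of which 107,369 were beside such boxes. The 3 sense species with most reads all began at position -95 of PLXDC1, with lengths of 23, 24 and 22 nt, and differed by 1 T each at the 3′ end (56,530, 35,929 and 11,976 reads). KNL1, a kinetochore scaffold, had 51,629 antisense reads (51,628 beside boxes), most of them in a pair of species that begin at -196 and end in 3 or 4 T (35,662 and 15,490 reads), the shorter of which has 2 exact matches. SHF had 11,455 antisense reads (11,438 beside boxes), and AGBL5 1079 sense reads (1054 beside boxes), with a leading species of 16 nt that ends in 5 T (912 reads). This AGBL5 species has 2 exact matches and 229 with up to 1 mismatch. RefSeq on GRCh38.p14 places a tRNA gene inside each of these 4 genes or within 1000 nt of its ends. These are TRC-GCA2-3 at PLXDC1, TRS-GCT4-2 at KNL1, TRH-GTG1-7 to TRH-GTG1-9 at SHF, and TRY-GTA2-1 and TRA-AGC8-1 at AGBL5. Their distance from the species above was not measured.

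Other genes with many sense reads also rested on few species. KISS1R, the kisspeptin receptor, had 1988 reads in 17 members, with 892 and 793 reads on 2 species that begin at position 72. RAP1A had 1441 reads, with 635 on a species at position -2 that has 2 exact matches in the genome and 2 matches on the scaffold with ribosomal RNA genes at up to 1 mismatch. ATP5F1B, the beta subunit of ATP synthase, had 1368 reads in 77 members, led by a species at -176 (780 reads). RefSeq lists the snoRNA genes SNORD59A and SNORD59B inside ATP5F1B or within 1000 nt of its ends. KANK1 had 927 reads (893 on a species of 16 nt with 4 exact matches), ZNF264 had 565 on its leading species, and the gene sums were 700 for BHLHE41, 686 for SLC25A20 and 628 for FBXL13.

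Off boxes and hairpins, the 10 members with most reads held 23.5% of antisense and 4.20% of sense reads. CASP8AP2 had 8345, of which 7840 were on the species that ends in CCA, the letters added to tRNA 3′ ends. That species has 2 exact matches and 24 with up to 1 mismatch. SESN3 had 2596 (2594 on a species of 17 nt at position 113) and ANKS1B 2384 (2367 on a species of 16 nt at 217), and both species have 2 matches on the scaffold with ribosomal RNA genes at up to 1 mismatch. PARP2 had 1670 reads in 58 upstream members, led by a species at -204 (760 reads). RefSeq lists RPPH1, the RNA of ribonuclease P, inside PARP2 or within 1000 nt of its ends. PLXNB3 had 1569, GRIP1 1331, MTIF3 937 (930 on a species that ends in CCA) and GBF1 804. Among members off boxes and hairpins, 4 of the antisense members with at least 100 reads ended in CCA (10.5%, interval 4.17–24.1), against 1.10% of those with 1 read. Among sense members it was 1 (2.13%, interval 0.377–11.1) against 0.815%. Whether these species arise at the coding gene's start or elsewhere was not tested.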

How the data were processed

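Small RNA of 3 batches of K562 cells was pooled by the authors into 1 deposited list of alignments, each with a position, a strand, a read count and an RPKM value. Bowtie2 2.2.9 and hg19 are named in the submitters' processing notes. HEK293 samples of the series are not used here. The deposited read counts are whole multiples of a neighbour number, which counts the alignment itself and those sharing its strand with ends shifted by 3 nt or less in sum, for all 1,246,133 alignments with such a neighbour. Recovered reads are the deposited counts divided by this number. This reading is inferred from the values, since no such step is described in the sources used here, and every read value rests on it. The deposited RPKM was used only to check its denominator of 54,140,681 reads. The denominator exceeds the recovered sum of 47,670,688.

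Starts, exons and small RNA genes came from GENCODE 44 mapped to GRCh37, and names of neighbours from RefSeq on GRCh38.p14. Each alignment went to the nearest start on its own strand, and otherwise to the nearest on the other. Densities divide alignments by the strand positions assigned in the same way. Shares carry 95% Wilson intervals, and densities and ratios exact Poisson or conditional binomial intervals, for counting error only. Scripts used Python 3.11.15, numpy 2.4.6, pandas 2.3.3 and scipy 1.17.1, and were tested on simulated data.

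Named genes are the 10 with most recovered reads on each strand, the 5 species of most reads on each strand, the 3 genes with most reads on annotated small RNA, and the 3 with most reads in each list. Other named genes are cell type markers, members of the lists, or were chosen after their values were seen, which holds for those with most members, with most 3′ ends at exon ends and the genes whose sequences are shown. The members and lists were chosen with earlier results of these data known. Alternatives changed the window, lengths, read minimum, starts, small RNA, assignment, mappability and weighting.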

Additional observations from a re-analysis of the deposited data

How the results depend on the processing

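No paired analysis was possible because the K562 list pools its batches. With 5′ ends within 100 nt, there were 11,137 antisense members, the strand density ratio was 6.24, densities over flank were 8.91 (sense) and 2.12 (antisense), median 5′ ends were 18 and -24, and the exon to intron ratio was 3.70. With 18 to 24 nt, the strand ratio was 2.68, densities over flank 5.74 and 3.27, the antisense median -112 and the exon to intron ratio 6.235. At least 2 recovered reads left 22,512 sense and 8166 antisense members, densities over flank of 4.93 and 2.82 and an exon to intron ratio of 6.09. With 1 start per gene, the most upstream, there were 55,937 sense members, a strand ratio of 2.27, medians of 51 and -122 and an exon to intron ratio of 5.58. Starts of basic transcripts gave a strand ratio of 2.55, densities over flank of 5.83 and 3.05, medians of 26 and -115 and an exon to intron ratio of 5.54. Keeping annotated small RNA gave a sense density over flank of 5.02. Assignment to the nearest start of either strand gave 5.39 and 3.26 over flank and an antisense median of -101. Alignments with 1 exact match gave 6.02 and 3.49 over flank, an antisense median of -111 and an exon to intron ratio of 6.14. Per mappable position, an alternative chosen after seeing the data, these were 4.885 and 2.85 over flank and 5.68 for exons over introns.

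Weighting by recovered reads changed most: the antisense density was 0.0304 times its flank, below it rather than above, the sense median was -41, upstream rather than downstream, the antisense median was -154, the median sense length 22 nt, the strand ratio 1.75, the sense density over flank 3.135 and the exon to intron ratio 4.10. The 3 PLXDC1 species at -95 hold 56,530, 35,929 and 11,976 of the sense reads. Off boxes, 39,897 sense reads were upstream and 110,957 downstream, against 148,799 and 111,249 with boxes kept, so that most were then downstream. The cause of the other shifts was not tested. The genes named by reads held 199,666 recovered and 2,611,366 deposited reads, and those ranked by number of members, chosen after seeing the data, held 16,232. Of 10 sense genes, 9 were also named by deposited reads and 0 by number of members; of 10 antisense genes, 7 and 2. Setting hairpins and box neighbours apart, also chosen after seeing the data, left the unweighted densities, ratios and medians within their intervals, while the ratio of sense to antisense reads by plain count moved from 1.84 to 1.94.

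With 75.2% of members on 1 recovered read and no replicate, differences between single genes of few members cannot be resolved, and an absent member does not show that a gene gives none.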
